A study of Mus musculus with 3 samples.

Results

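The HMGB family, high mobility group proteins of the B type, was followed through the germ cells of the adult mouse testis. Its 4 members, Hmgb1 (ENSMUSG00000066551), Hmgb2 (ENSMUSG00000054717), Hmgb3 (ENSMUSG00000015217) and Hmgb4 (ENSMUSG00000048686), were taken by symbol from the 31053 genes of the deposited tables, and all of them were present. Their transcripts were counted in single testicular cells of WT, GRTH-KO (KO) and GRTH-KI (KI) mice of the C57BL/6 strain, which the labels give as 8 weeks old. GRTH is the RNA helicase that the gene Ddx25 encodes. KO mice lack it, and KI mice are homozygous for a knock-in of the human GRTH gene with an arginine-to-histidine change that removes the phosphorylated form of the protein, so both carry the alteration in every cell and not in germ cells alone. Each genotype is 1 library of 10x Genomics 3′ single-cell RNA-seq. The labels speak of 3 different mice, the study's methods of animals pooled within a group, and the libraries hold no map from cells to animals. Because a genotype is a single library, its spread between animals could not be measured and nothing was tested across samples. Every interval given is a 95% interval of counting error only, exact Poisson for levels and exact Clopper-Pearson for shares. Intervals of log2 ratios are a normal approximation from the variance of the counts, which is rough where UMIs are few. The term "2-fold" is used as a fixed rule of size.

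HMGB proteins are small, abundant, non-histone chromatin proteins. A pair of HMG boxes binds the minor groove of DNA and bends it, which loosens nucleosomes and helps transcription factors and recombinases to assemble. Hmgb1 is made in almost every cell and also acts as an alarm signal when it leaves the cell. Hmgb2 belongs to dividing cells, lymphoid cells and the testis, and Hmgb3 to embryonic and stem cells. Hmgb4 is known as a testis gene of late germ cells. In the testis, spermatogonia (SG) divide and enter meiosis as spermatocytes (SP), haploid round spermatids (RS) follow, and elongated spermatids (ES) replace histones first with transition proteins and then with protamines, which stops transcription.

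The members differ at the end of their reading frames, and this end is shown first because it separates Hmgb4 from the other genes. HMGB proteins are known for an acidic C-terminal tail that folds back on the HMG boxes. The last 30 codons before the stop codon (90 bases, 5′ to 3′ on the coding strand, from the GENCODE M21 transcripts on GRCm38) are printed with codons for aspartate and glutamate in capitals.

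Hmgb1: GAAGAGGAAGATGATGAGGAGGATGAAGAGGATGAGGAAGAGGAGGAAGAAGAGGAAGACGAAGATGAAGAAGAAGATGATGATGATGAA

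Hmgb2: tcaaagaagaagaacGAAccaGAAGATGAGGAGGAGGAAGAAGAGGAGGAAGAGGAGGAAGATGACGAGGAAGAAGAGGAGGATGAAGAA

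Hmgb3: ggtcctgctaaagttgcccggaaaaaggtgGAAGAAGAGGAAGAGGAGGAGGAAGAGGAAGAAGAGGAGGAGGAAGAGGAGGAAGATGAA

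Hmgb4: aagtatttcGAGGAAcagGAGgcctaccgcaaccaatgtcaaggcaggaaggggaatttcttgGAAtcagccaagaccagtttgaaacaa

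These bases lie in the last coding exon of each gene, at chr5:149048740-149048829 (minus strand) for Hmgb1, chr8:57514035-57514124 (plus) for Hmgb2, chrX:71559712-71559801 (plus) for Hmgb3 and chr4:128260231-128260320 (minus) for Hmgb4. All 30 codons are acidic in Hmgb1, 24 in Hmgb2 and 20 in Hmgb3. Hmgb4 has 4 acidic codons there, never more than 2 in a row, and none at its end. Hmgb4 is also the only member whose transcript has a single exon, of 746 bases with 181 coding codons, whereas the transcripts of Hmgb1, Hmgb2 and Hmgb3 have 5 exons and 215, 210 and 200 coding codons. The genes span chr5:149046702-149184489, chr8:57511907-57515999, chrX:71555918-71560676 and chr4:128260212-128260957, respectively. The same annotation names 14 pseudogenes of Hmgb1 and 1 of Hmgb3, none of which is in the deposited tables, so reads that match a parent and its copy equally well make the Hmgb1 and Hmgb3 counts less certain than the others.

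The WT, KO and KI libraries held 82973909, 91388296 and 73150373 UMIs (unique molecular identifiers, 1 per captured transcript), and 5858, 4048 and 1570 cells were kept, with median UMIs of 5137, 4024.5 and 11751. Barcodes shared between libraries were few among these cells: 16 between WT and KO, 37 between WT and KI (2.36% of the KI cells) and 8 between KO and KI. Leaving them out kept every 2-fold call on the members. Ddx25 matched the labels: its level in SP-like cells was 214 UMIs per 1000000 (CPM) for WT, 0.323 for KO and 98.1 for KI, and RS-like cells of KO held 0 Ddx25 UMIs of 5155551, which allows up to 0.716 CPM. The low-count barcodes of KO held 8.39 CPM of Ddx25, from 75 UMIs, whose origin was not tested. The KI level counts reads assigned to the mouse gene, and how the human insert was counted was not tested.

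Cells of the 3 libraries were clustered together, without the HMGB genes among the genes used, and clusters were named from cell type markers. Of 17 clusters, 1 was SG-like (cluster 12), 5 SP-like, 2 RS-like and 3 ES-like, and 7 of these with at least 50 cells in every library, and whose cells pooled over the libraries had a median depth, relative to each cell's own library, of at least that of the library, were followed one by one. They are cluster 12 (SG-like), clusters 6, 13 and 2 (SP-like), cluster 10 (RS-like) and clusters 7 and 4 (ES-like), in the order of the protamine transcript Prm2 in WT within each class. In the SP-like clusters these Prm2 levels lie close together (951, 997 and 1254 CPM), so the order of clusters 6, 13 and 2 is a convention for listing them. Cluster 12 was led by Dazl and Ncl but also by the meiotic genes Sycp1 and Tex101, so it reaches from spermatogonia into the first meiotic cells. The placing of KO and KI cells in the ES-like class was weak. Cluster 3, the most protamine-rich cluster, held 1150 WT, 5 KO and 4 KI cells. When the libraries were clustered without alignment to each other, the ES-like clusters held 2210 WT, 1 KO and 5 KI cells, and the KO and KI cells of clusters 7 and 4 fell mostly in an unnamed cluster of 2 WT, 405 KO and 144 KI cells whose scores for RS and ES markers were about equal (0.587 and 0.583). An RS-like cluster of 545 WT cells then held only 3 KO and 1 KI cells. SP-like cluster 2 has RS as its second-best class (marker scores 0.302 and 0.098), and the cluster that shares most cells with it without alignment is RS-like, with an overlap of 0.395 of their union, so it borders on the round spermatids. Values of ES-like KO and KI cells below are read with this in mind. In cluster 4 the KO and KI cells also had low depth, at medians of 1729 and 1541 UMIs against 7952.5 in WT.

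The family changed its make-up almost completely between spermatocytes and round spermatids. Hmgb2 led in SG-like and SP-like cells, with Hmgb1 second in SG-like cells, and both fell. Hmgb3 was low after the SG-like stage. Hmgb4 was higher in SP-like cluster 2 than in cluster 13, was higher again in RS-like cluster 10, and was in the latter by far the most abundant member in the WT, KO and KI libraries. Because each captured molecule is counted once at its 3′ end, CPM values of different members can be set side by side without dividing by transcript length.

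**Figure D1:**
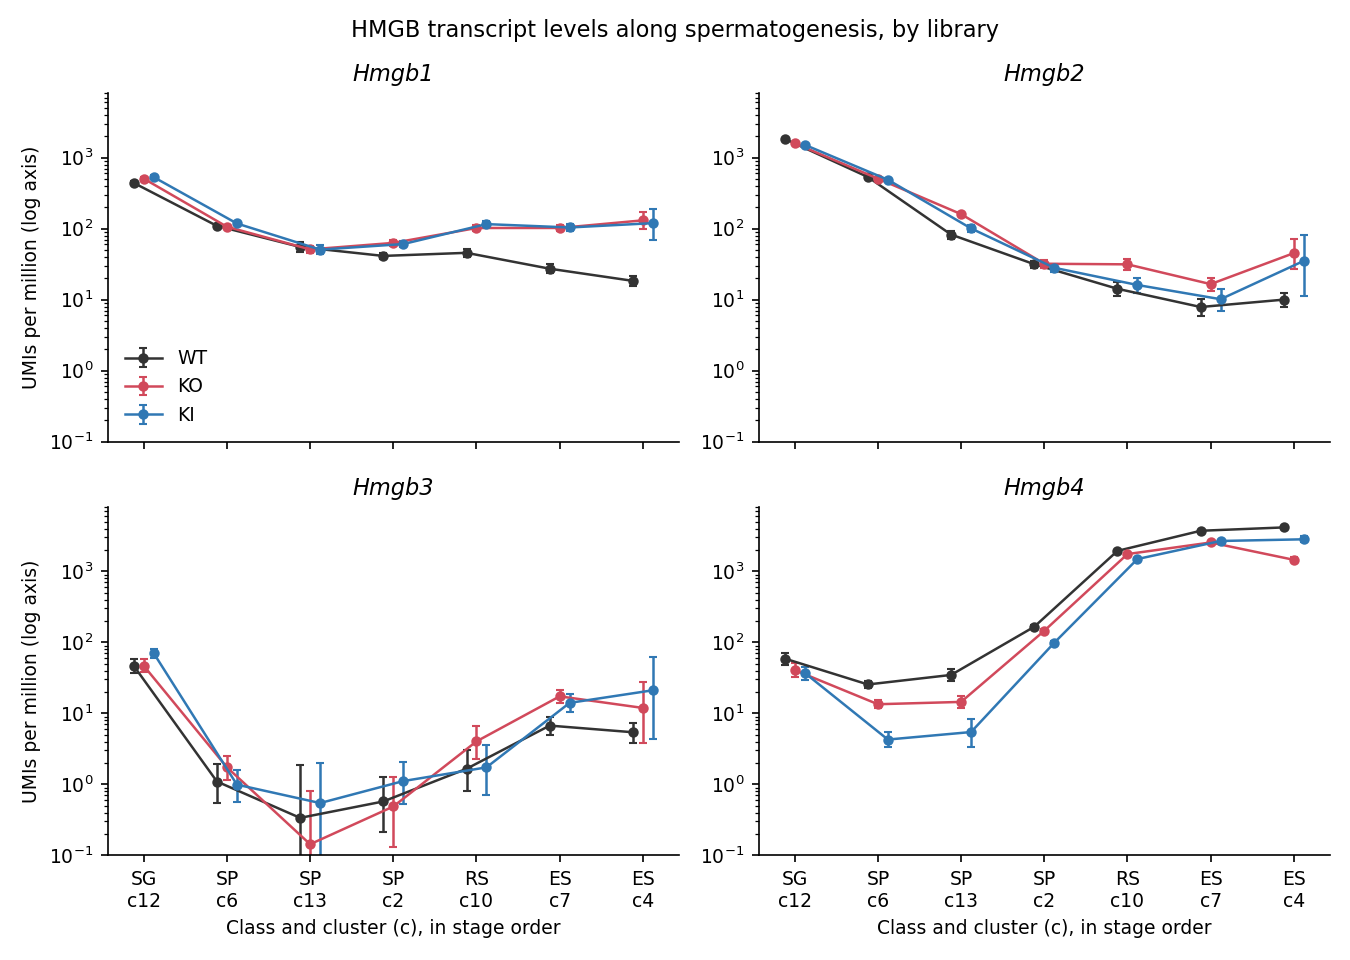
Level of each HMGB transcript, in CPM on a log axis, in the 7 followed germ cell clusters from SG-like cluster 12 to ES-like cluster 4. Lines join the clusters of the WT, KO and KI libraries, and bars are 95% Poisson intervals. Hmgb1, Hmgb2 and Hmgb3 are highest in cluster 12, where Hmgb2 stood at 1834 CPM in WT, and Hmgb4 is higher in cluster 2 than in cluster 13 and higher again in cluster 10.

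Hmgb2, the member tied to dividing cells, was highest in the first germ cells and low in round spermatids. Its level in SG-like cells was 1834 CPM (1770 to 1900) for WT, 1593 for KO and 1517 for KI. In SP-like cells it was 269.9 CPM (264 to 276) for WT, 318 for KO and 309 for KI. The fall from SG-like to SP-like cells was 6.77-fold for WT, 5.0-fold for KO and 4.90-fold for KI, in a comparison in which 39.5% of all tested genes were at least 2-fold lower for WT (37.7% for KO and 38.9% for KI). The size of the WT fall depends on the scaling and on how the classes are drawn: it was -2.76 on the log2 scale, -1.91 with trimmed-mean (TMM) size factors and -1.02 with each cell given the class of its highest marker score.

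Within the spermatocytes Hmgb2 differed widely between clusters. In WT it was at 533 CPM in cluster 6, 82.5 in cluster 13 and 31.5 in cluster 2. Cluster 13 against cluster 6 was -2.68 on the log2(CPM + 1) scale, in a comparison in which 16.2% of genes were at least 2-fold lower, and cluster 2 against cluster 13 was -1.36, with 15.3% of genes lower. In KO the same clusters held 506, 160 and 32.0 CPM, and in KI 488, 101 and 28.1 CPM. From cluster 2 to RS-like cluster 10 Hmgb2 fell by 1.10 on the log2 scale in WT, while in KO both clusters were near 32 CPM (log2 -0.03, -0.32 to 0.27). RS-like cells held 22.9 CPM (19.5 to 26.6) for WT, 42.5 for KO and 29.5 for KI, so it was low once meiosis was over in each of them. The RS-like level was 11.4-fold below the SP-like level for WT, 7.33-fold for KO and 10.2-fold for KI, where 37.9%, 35.9% and 36% of genes were at least 2-fold lower.

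Hmgb1, the member made in most cells, was highest in the first germ cells and lower in spermatocytes in each library. In class sums it was lower again in the spermatids of WT. In SG-like cells it stood at 441 CPM (409.7 to 473) for WT, 506 for KO and 531 for KI. In SP-like cells it stood at 74.1 CPM (70.9 to 77.6), 84.9 and 93.7, respectively, a fall of 5.88-fold, 5.91-fold and 5.62-fold. In the sums over these SG-like and SP-like classes the ratio of a mutant library to WT reached at most 1.26-fold, in SP-like cells of KI, and cluster 2, described below, gave larger ratios.
From SP-like to RS-like cells Hmgb1 did not change by 2-fold in any library with the classes drawn as above, though in WT it fell by 1.10 on the log2 scale without alignment and by 1.01 with classes by marker score. The log2 change was -0.62 (-0.78 to -0.46) for WT, 0.28 (0.15 to 0.41) for KO and 0.25 (0.12 to 0.38) for KI, so the sign in WT was opposite to that in both mutants. In the last step of WT, to ES-like cells, Hmgb1 went from 47.9 to 20.4 CPM, 2.29-fold lower, in a comparison in which 60.2% of genes were at least 2-fold lower and 7.79% higher. That step depends on the scaling: on the log2 scale it was -1.19, against 0.26 with TMM size factors, and -0.78 with the packing transcripts left out of the totals.

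Hmgb3, the X-linked member, was among germ cells highest in the SG-like class. It had 46.6 CPM (36.9 to 58.1) in SG-like cells of WT, 46.7 in KO and 70.2 in KI. In SP-like cells it had 0.816 CPM for WT, 1.09 for KO and 1.03 for KI, from 21, 37 and 31 UMIs in all. The SP-like levels are about as large as the 1 CPM added before taking ratios, so the size of this fall depends on it: on the log2 scale it was -4.71 for WT, and -2.39 with 10 CPM added and -5.67 with 0.1 CPM. Genes of the X chromosome are known to be silenced in meiosis. A low level came back later: ES-like cells had 5.69 CPM (4.66 to 6.88) for WT, 16.7 (13.5 to 20.4) for KO and 14.5 (10.8 to 19.1) for KI, against 1.65, 4.07 and 1.68 CPM in RS-like cells, which rest on 12, 21 and 8 UMIs.

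In CPM, Hmgb4 was at first lower in the later cluster, as were the other members. In SG-like cluster 12 it was at 59.0 CPM for WT, 40.6 for KO and 37.1 for KI. In cluster 6 of the SP-like cells it was lower, at 25.5 CPM for WT, 13.4 for KO and 4.27 for KI. Hmgb4 UMIs per cell did not fall between these clusters for WT (0.70, then 0.87) or KO (0.50, then 0.51). For KI they fell (0.90, then 0.375). Cells of cluster 6 were deeper, with median UMIs of 31714, 34915 and 82842 against 8023, 8750 and 18745. How far depth or free RNA set the lower CPM was not tested. After cluster 6 the course of Hmgb4 in CPM was opposite to that of Hmgb2. In SP-like cluster 2 it was at 166, 145 and 98.4 CPM, and in RS-like cluster 10 at 1937, 1746 and 1487 CPM. Cluster 2 against cluster 13 was 2.22 on the log2 scale in WT (1.94 to 2.50), with 22% of genes at least 2-fold higher, and 3.24 in KO and 3.95 in KI. Cluster 10 against cluster 2 was 3.54 in WT (3.47 to 3.61), with 21.7% of genes higher, and 3.58 in KO and 3.90 in KI.
Taken by class, Hmgb4 was 15.5-fold higher in RS-like than in SP-like cells of WT, 25.4-fold higher in KO and 36.7-fold higher in KI, where 28.3%, 31.4% and 30.4% of genes were at least 2-fold higher. It went on to 3718 CPM in cluster 7 and 4146 CPM in cluster 4 of WT. In cluster 3, which is almost wholly WT and richest in protamine transcripts, Hmgb4 was at 291 CPM, less than in any RS-like or other ES-like cluster of that library.

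Hmgb4 has an antisense neighbour, Hmgb4os, a non-coding gene on the plus strand at chr4:128261044-128262990 that starts just upstream of Hmgb4. Its level in RS-like cells was 24.9 CPM for WT, 12.03 for KO and 13.4 for KI. In SP-like cells it was at 1.24 CPM or less in the 3 libraries, and in ES-like cells it was at 9.98, 13.7 and 16.2 CPM. The antisense transcript was thus highest in WT at the stage where Hmgb4 rose, at a far lower level.

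The upstream sequences of the pair that changes places are shown because the members moved in opposite directions. They cover 188 bases, from 250 to 63 bases before the RefSeq start (GRCm38.p6), at chr8:57511593-57511780 on the plus strand for Hmgb2 and chr4:128260958-128261145 on the minus strand for Hmgb4, with CCAAT, or ATTGG on the other strand, in capitals.

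Hmgb2: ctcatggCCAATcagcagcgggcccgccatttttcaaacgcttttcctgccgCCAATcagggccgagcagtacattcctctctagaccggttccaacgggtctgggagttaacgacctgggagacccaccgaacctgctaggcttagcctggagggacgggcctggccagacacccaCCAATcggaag

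Hmgb4: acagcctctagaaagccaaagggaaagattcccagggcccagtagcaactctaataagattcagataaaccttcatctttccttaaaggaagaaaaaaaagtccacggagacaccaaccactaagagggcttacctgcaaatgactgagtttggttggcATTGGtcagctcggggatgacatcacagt

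The Hmgb2 stretch holds 3 CCAAT motifs and 11 CpG dinucleotides, the Hmgb4 stretch 1 and 2. Over the whole 250 bases before the start, 14 CpG were counted for Hmgb2 and 2 for Hmgb4. Of 32851 promoters, 29.4% have as many CpG as Hmgb2 and 81.2% as many as Hmgb4. The motifs searched on both strands were CCAAT, found in 33.8% of all promoters, TATAAA in 12.4%, TGACGTCA in 1.55%, TGACG in 17.8% and GGGCGG in 32.7%. The TGACG motif is contained in TGACGTCA. Of these only CCAAT was found before Hmgb4, and only CCAAT and GGGCGG before Hmgb2. A match describes letters in this window and is not evidence that a factor binds there.

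The make-up of the family's transcript pool shows the change without any scaling between libraries. Hmgb2 supplied 77.1% (75.7 to 78.3) of all HMGB UMIs in SG-like cells of WT, 72.9% in KO and 70.4% in KI. Hmgb4 supplied 96.1% (95.8 to 96.5) in RS-like cells of WT, 90.8% (90.1 to 91.4) for KO and 90.3% (89.6 to 91.0) for KI. In cluster 13 the Hmgb4 share was 20.1% for WT, 6.41% for KO and 3.46% for KI, and Hmgb2 still led with 47.8%, 70.9% and 64.0%. In cluster 2 the Hmgb4 share was 69.3% (67.4 to 71.1), 60.3% (58.1 to 62.5) and 52.2% (49.8 to 54.6), and Hmgb2 was down to 13.2%, 13.3% and 14.9%. Hmgb4 supplied 88.8%, 81.6% and 81.9% of the HMGB UMIs of barcodes with too few UMIs to be cells. Its level in cluster 2 lies below that in Sertoli-like cells, given below. Those cells are far shallower, so the comparison does not decide whether Hmgb4 leads in cluster 2. Among the leading genes of that cluster is the spermatocyte marker Tbpl1.
The size of the pool also changed. All members summed to 2381 CPM in SG-like cells of WT, 460.4 in SP-like cells, 1881 in RS-like cells and 3118 in ES-like cells. In KO the sums were 2187, 460.4, 1619.6 and 2598 CPM, and in KI 2156, 439, 1476 and 2808 CPM. The spermatocytes of all 3 libraries were the low point.

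**Figure D2:**
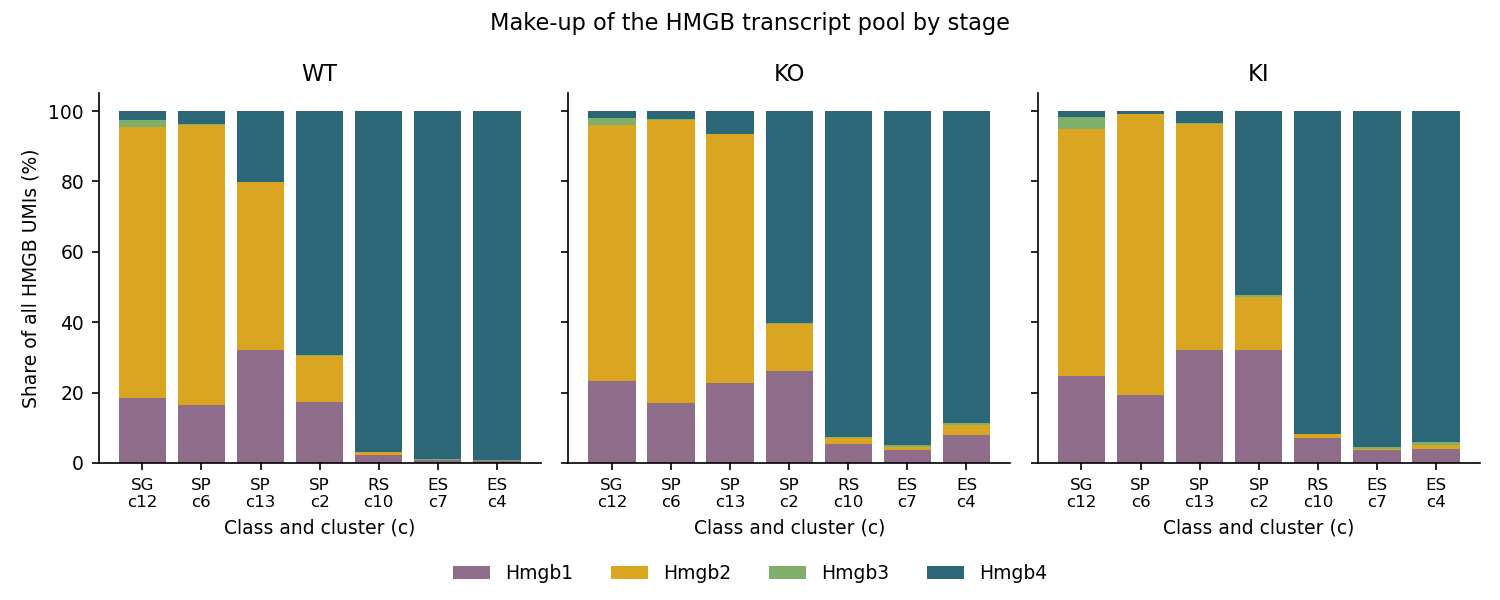
Share of all HMGB UMIs, in percent, that each member supplied in the 7 followed clusters, 1 panel each for the WT, KO and KI libraries. Stacked bars run from 0 to the whole pool. Hmgb2 fills most of the bar in SG-like cluster 12 (77.1% in WT) and Hmgb4 nearly all of it in RS-like cluster 10 (96.9% for WT, 92.7% for KO and 91.8% for KI).

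The same change was seen in the share of cells with a UMI. With each cell thinned to 1000 UMIs, 11.3% of the WT cells of cluster 2 had an Hmgb4 UMI (12.5% in KO, 8.39% in KI), and 81.7% of those of cluster 10 (76.5% and 73.6%). Without thinning, the shares were 60.1%, 64.2% and 63.1% in cluster 2 and 100% of the cells of cluster 10 in all libraries. Hmgb2 went the other way, from 81.1% of thinned WT cells in cluster 12 to 42.7% in cluster 6 and 1.60% in cluster 10.
Sertoli-like cells, somatic support cells that should not make Hmgb4, are set beside these. There 30.9%, 29.8% and 25% of thinned cells had an Hmgb4 UMI (43.7%, 47.9% and 41.3% unthinned, at median depths of 1447, 1574.5 and 1206 UMIs). The thinned shares of clusters 12 (0.99% to 6.99%), 6 (1.02% to 1.36%), 13 (1.14% to 6.19%) and 2 lie below this. Cells of those clusters are deeper, with a median of 11436 UMIs in cluster 2 of WT, while a low-count barcode of WT held 183 UMIs on average. The same amount of free RNA is a smaller part of a deeper cell, so this comparison cannot decide whether those clusters express Hmgb4. The thinned shares of cluster 10 lie well above those of Sertoli-like cells.

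The first germ cells were not of 1 kind for the HMGB genes. Cells of cluster 12 were split by their UMIs of the synaptonemal complex genes Sycp1 and Sycp3. In cells with 5 to 20 of these per 10000 UMIs (31 WT, 35 KO and 21 KI cells), Dmrt1, a spermatogonial regulator, was at 279, 188 and 325 CPM. In cells with 20 or more (103, 119 and 76 cells) it was at 8.67, 12.9 and 3.71 CPM. By Dmrt1 the first set is nearer to spermatogonia. The meiotic gene Dmc1 was at 157, 171 and 110 CPM in the first set and at 138, 237 and 219 CPM in the second. The first set is therefore not read as spermatogonia alone. The rest of the 143 WT, 161 KO and 101 KI cells had fewer than 5 per 10000 and were too few to be summed.
Hmgb3 was at 169 CPM (122 to 228) in the first set of WT, 159 in KO and 202 in KI. In the second set it was at 15.2 CPM (9.39 to 23.2), 12.9 and 26.0. Hmgb1 was likewise higher in the first set, at 723, 818 and 951 CPM against 379, 412 and 395. Hmgb2 went the other way in WT, from 1485 CPM (1339 to 1643) to 1924 (1851 to 1998), and differed less in KO (1483 and 1642) and KI (1461 and 1541). Hmgb3 and Hmgb1 were thus lower in the second set of each library, while Hmgb2 was not. Hmgb4 differed in direction, with 193 CPM in the first set of WT against 34.0 in the second, 53.0 against 36.0 for KO, and 19.0 against 42.4 for KI.

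The comparison of KO and KI with WT asks whether the course of the family differs without GRTH or without its phosphorylated form. Hmgb1 was higher in the spermatids of both mutants. Hmgb4 was under 2-fold from WT in the RS-like class and in cluster 10, but more than 2-fold lower in the low-depth RS-like cluster 1. Without alignment of the libraries it was more than 2-fold lower in the RS-like class, yet higher in 1 RS-like cluster. The WT and mutant cells of that cluster are not shown to be of like stage. KO and KI are each set against the same WT library, so whatever is particular to that library enters both ratios.

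**Figure D3:**
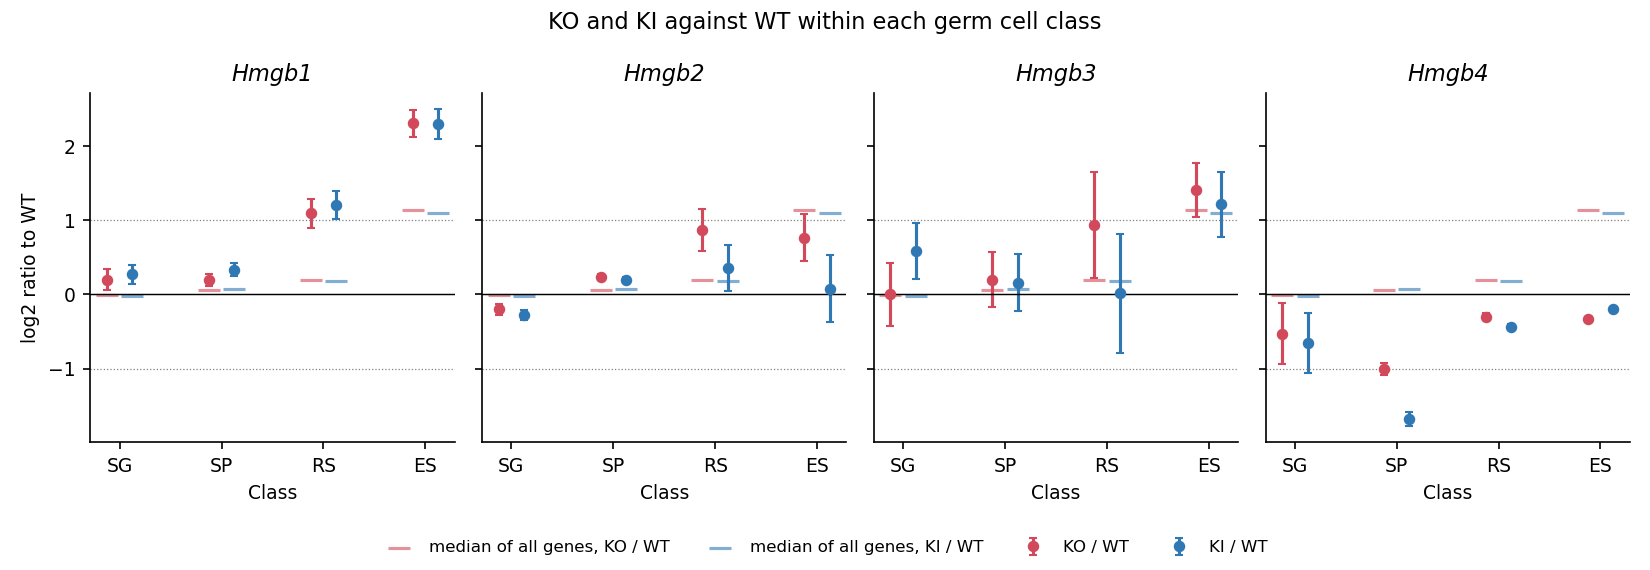
Log2 ratio of CPM + 1 of KO to WT and of KI to WT for each member in the SG-like, SP-like, RS-like and ES-like classes. Points are ratios with 95% counting intervals, dotted lines mark 2-fold, and a further mark per class gives the median of all tested genes (0.19 for KO and 0.18 for KI in RS-like cells). Hmgb1 lies above the upper dotted line in RS-like and ES-like cells of both mutants. In ES-like cells 55.3% of all tested genes in KO and 53.1% in KI were likewise at least 2-fold higher.

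In RS-like cells Hmgb1 was at 47.9 CPM (43.0 to 53.2, 348 UMIs) for WT, 103 CPM (94.6 to 112, 532 UMIs) for KO and 112 CPM (103 to 122, 534 UMIs) for KI. The intervals of the mutants did not overlap that of WT, but they cover counting error only. The share of all genes with such intervals was not counted. The Hmgb1 ratio was 2.13-fold in KO (log2 1.09, 0.90 to 1.28) and 2.31-fold in KI (log2 1.21, 1.01 to 1.40). The median gene in the same comparisons was at 0.19 and 0.18, and 8.06% of genes were at least 2-fold higher in KO and 8.05% in KI. With TMM size factors, which remove that general shift, the log2 ratios were 0.84 and 0.99, below the 2-fold rule. The KO value was 0.97 with a pseudocount of 10 CPM. Among barcodes with too few UMIs to be cells, Hmgb1 was at 61.0 CPM for WT, 96.7 for KO and 116 for KI, so free RNA differed in the same direction.
In SG-like and SP-like cells the Hmgb1 log2 ratios lay between 0.19 and 0.33 in both mutants. With classes by marker score the SG-like ratios were 0.55 in KO and 1.05 in KI, the latter past 2-fold. In cluster 2 they were 0.60 (0.42 to 0.78) in KO and 0.54 (0.37 to 0.72) in KI. In RS-like cluster 10 they were larger, at 1.14 (0.93 to 1.36) in KO and 1.32 (1.11 to 1.54) in KI, where 7.94% and 9.61% of genes were at least 2-fold higher. In WT the level was 45.7 CPM in cluster 10, 27.3 in cluster 7 and 18.4 in cluster 4. It lay between 102 and 131 CPM in KO and between 104 and 120 CPM in KI. The cluster 4 values of KO and KI rest on only 55 and 17 UMIs. Split by packing share, as described below, WT lay between 41.4 and 47.6 CPM in the ranges up to 20%. It was at 25.2 CPM only above 20%, where the mutants held almost no cells. In cluster 7 the log2 ratios were 1.87 and 1.89, but there 33.4% and 33.6% of all genes were at least 2-fold higher, with a median of 0.62 and 0.63. The protamine transcripts that take up WT UMIs were lower there in the mutants (Prm2 at 56314 CPM for WT, 24675 for KO and 26167 for KI).

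To set spermatids with like levels of packing transcripts side by side, the cells of RS-like cluster 10 and ES-like clusters 7, 4 and 3 were also split by the share of their UMIs in Tnp1, Tnp2, Prm1, Prm2 and Prm3, and levels were taken as CPM of the other UMIs. The low-depth RS-like cluster 1 (669 WT, 662 KO and 243 KI cells) was left out of this split. Since packing transcripts themselves differed between the libraries, a like share is not shown to be a like stage. Cells with a share under 1% numbered 163 for WT, 152 for KO and 82 for KI. Hmgb1 was there at 47.6 CPM (40.0 to 56.3) for WT, 104 (92.5 to 116) for KO and 115 (104 to 127) for KI, in comparisons with 7.07% and 6.36% of genes at least 2-fold higher. From 1% to 3% it was at 45.1, 94.8 and 128 CPM, with 12.1% and 10.9% of genes higher. From 3% to 10%, the range that holds 121 WT, 370 KO and 122 KI cells, it was at 45.8, 119 and 114 CPM, with 13.3% and 16.7% of genes higher. The Hmgb1 log2 ratio was between 1.05 and 1.36 in the 4 ranges of KO and between 1.25 and 1.49 in the 3 of KI.
Hmgb4 gave the contrast. In the same 3 ranges it was at 1425, 2206 and 2712 CPM for WT, 1493, 2375 and 2622 CPM for KO and 1306, 2441 and 2753 CPM for KI. Over these ranges it rose with the packing share in each library. In these cells its log2 ratio to WT at a given share stayed between -0.13 and 0.15. Cluster 1, not among them, had ratios of -1.12 and -1.26. Cells with a share above 20% were almost only WT (1994 cells, against 0 in KO and 3 in KI), and there Hmgb4 was at 4540.2 CPM and Hmgb1 at 25.2 CPM. That Hmgb4 value rests on 49476 UMIs. Cluster 3, richest in protamine transcripts, held only 1278 Hmgb4 UMIs in its 1150 WT cells, and 51.0% of these cells had one. The value above 20% therefore does not describe cluster 3, where Hmgb4 was low.

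**Figure D4:**
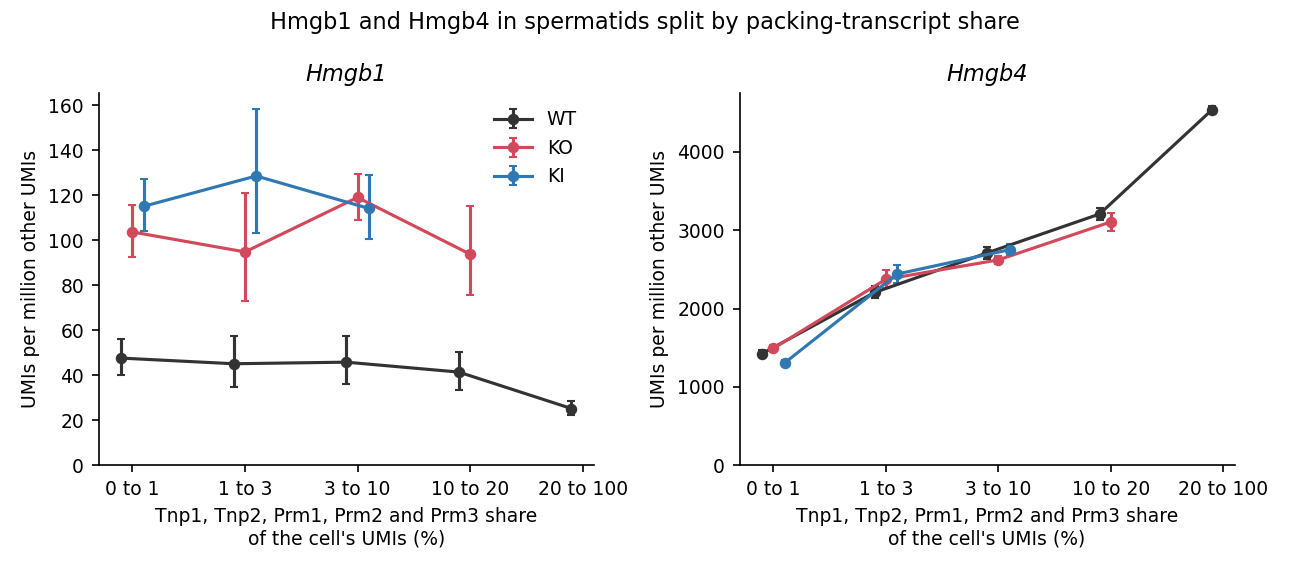
Hmgb1 (left) and Hmgb4 (right) in cells of clusters 10, 7, 4 and 3 (without the low-depth RS-like cluster 1) split by the share of a cell's UMIs in Tnp1, Tnp2, Prm1, Prm2 and Prm3, in CPM of the other UMIs on linear axes that start at 0. Points are the WT, KO and KI libraries with 95% Poisson intervals, and a range is left out for a library with fewer than 20 cells in it. Hmgb1 of KO and KI lies above WT in every shared range, while the Hmgb4 points of the 3 libraries rise together.

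By class, Hmgb4 in RS-like cells was at 1808 CPM (1777 to 1839) for WT, 1469.9 (1437 to 1503) for KO and 1333 (1301 to 1366) for KI. The log2 ratios of -0.30 and -0.44 were under 2-fold, as were those of cluster 10, at -0.15 in KO and -0.38 in KI. When each cell was instead given the class of its highest marker score, the RS-like ratios were 0.21 and 0.06, so their sign rests on how the class is drawn. Without alignment of the libraries, where the RS-like class takes in the cluster of 545 WT cells, they were -1.14 and -1.39, past 2-fold. The RS-like clusters then differed in direction: in the deep cluster that holds all 3 libraries (340 WT, 442 KO and 204 KI cells) Hmgb4 was higher in the mutants, at 232 CPM for WT, 773 for KO and 643 for KI. This is the cluster that shares most cells with SP-like cluster 2. The 545 WT cells, with Hmgb4 at 2408 CPM, fell outside it. Its WT and mutant cells are therefore not shown to be of like stage. In the low-depth RS-like cluster 1 of the aligned libraries the log2 ratios were also past 2-fold, at -1.12 (6.67% of genes at least 2-fold lower) and -1.26 (6.7%), from 1169 CPM for WT, 538 for KO and 488 for KI. The cells of that cluster had medians of 1178, 1354.5 and 1905 UMIs.
In SP-like cells Hmgb4 was at 116 CPM (111 to 120) for WT, 56.9 (54.4 to 59.5) for KO and 35.3 (33.2 to 37.5) for KI. These log2 ratios of -1.01 and -1.68 passed 2-fold, where 2.19% of genes in KO and 2.65% in KI were at least 2-fold lower. They are ratios of class sums and mix clusters that the libraries held in different proportions. Spermatid transcripts were lower in the same clusters of the mutants. In cluster 6, where Hmgb4 was at 25.5, 13.4 and 4.27 CPM, the spermatid transcript Prm2 was at 951 CPM for WT, 72.5 for KO and 28.3 for KI, and Prm1 was at 759, 81.8 and 36.6 CPM. In cluster 13, where Hmgb4 was at 34.7, 14.5 and 5.45 CPM, Prm2 was at 997, 77.2 and 31.6 CPM. Under other settings the KO ratio passed 2-fold in 6 of 12 and was 0.62 without cell calling, whereas the KI ratio passed in 11 of 12. Subtracting the profile of a low-count barcode from each cell left them at -1.01 and -1.67, and other amounts of free RNA were not tested. Among the barcodes with too few UMIs to be cells, Hmgb4 was at 1463 CPM for WT, 963 for KO and 1290.4 for KI. In cluster 2 the log2 ratios were -0.19 (-0.29 to -0.08) in KO and -0.75 (-0.86 to -0.63) in KI. Cluster 2 supplied 1732 of the 2973 Hmgb4 UMIs of the WT class, and the low-depth SP-like cluster 5 another 831. Hmgb4 in cluster 5 was at 414 CPM for WT, 223 for KO and 81.2 for KI. Total UMIs of cluster 2 were 10460456, 8207305 and 8997791, beside class totals of 25732331, 34074117 and 30148453. Cells of KI were deeper, with a median of 82842 UMIs in cluster 6 against 31714 in WT and 34915 in KO. The class held 2973 Hmgb4 UMIs in 1698 WT cells, 1938 in 1509 KO cells and 1065 in 692 KI cells. Cluster 2 held 1732 in 710 WT cells, 1191 in 561 KO cells and 885 in 274 KI cells. How far these proportions or the depth of the cells set the class ratios was not tested. Whether clusters 6, 13 and 2 express Hmgb4 was left undecided above.

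In RS-like cluster 10 Hmgb2 was higher in KO than in WT. There it was at 14.2 CPM in WT (86 UMIs), 31.4 in KO (125 UMIs) and 16.1 in KI (65 UMIs). The log2 ratio was 1.09 (0.72 to 1.47) in KO and 0.17 (-0.27 to 0.60) in KI, and both ratios share the WT counts. The KO value stayed past 2-fold under 8 of 10 other settings, and was 0.86 with TMM and 0.77 with a pseudocount of 10 CPM. In cells with a packing share under 1% Hmgb2 was at 12.8, 39.1 and 17.8 CPM, and in the range from 3% to 10% at 19.0, 20.8 and 10.5 CPM, where KI was lower (log2 -0.80, -1.51 to -0.09) and KO was at 0.12 (-0.43 to 0.67). From 1% to 3% it was lower in KO, at 10.2 CPM against 18.2 in WT (log2 -0.78, -1.88 to 0.33), and from 10% to 20% at 12.4 against 21.8 CPM (log2 -0.77, -1.61 to 0.08), both with intervals that include 0. In cluster 13 of the spermatocytes Hmgb2 was at 82.5, 160.2 and 101 CPM, a log2 ratio of 0.95 (0.75 to 1.15) in KO, just under 2-fold, where 0.604% of genes were at least 2-fold higher. In clusters 6 and 2 its ratios to WT lay between -0.16 and 0.02. How much of this comes from a different mix of stages within the cluster was not tested.

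Hmgb3 in the packing range from 3% to 10% was at 4.16 CPM (1.67 to 8.58) for WT, 17.4 (13.7 to 21.7) for KO and 11.4 for KI. The KO comparison passed the filter of a mean of 10 CPM only through the KO level, and the KI comparison did not pass it, so neither is read as a call. In ES-like cells the log2 ratios were 1.40 and 1.21, near the medians of all genes (1.13 and 1.09). There 55.3% and 53.1% of genes were at least 2-fold higher. Hmgb3 passed the filter there only through the mutants, at 16.7 CPM in KO and 14.5 in KI against 5.69 in WT. These ratios are therefore not read as calls either.

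When the libraries were clustered without alignment, the unnamed cluster of KO and KI spermatids described above had Hmgb4 as its leading member in both mutants. Hmgb4 was there at 2488 CPM in KO and 2599 in KI, Hmgb1 at 106 and 109, Hmgb2 at 18.5 (15.3 to 22.2) and 10.1 (7.27 to 13.6), Hmgb3 at 16.5 and 14.2, and Prm2 at 21882 and 22814 CPM. With 2 WT cells beside them, it gives no ratio.

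Sertoli-like cells held UMIs of every member. They had Hmgb2 at 203, 260.4 and 244 CPM, Hmgb1 at 118, 134 and 189 CPM and Hmgb3 at 47.8 (31.8 to 69.1), 69.8 (53.6 to 89.3) and 102 (73.1 to 138) CPM in WT, KO and KI, beside 46.6, 46.7 and 70.2 CPM in SG-like cells. Stromal-like cells (27, 49 and 33 cells) had Hmgb1 at 444, 389 and 482 CPM, and Leydig-like cells (14, 20 and 20 cells) at 267, 236 and 217 CPM. Hmgb4 UMIs in Sertoli-like cells, at 681, 482 and 656 CPM, were the most numerous of the family there (64.9%, 50.9% and 55.1%) and came with Prm2 at 23916, 2685 and 6858 CPM, a transcript of late spermatids.

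The genes whose course over the germ cell clusters was most like each member were found by Pearson correlation of log2(CPM + 1) over 31 points, the germ cell clusters with at least 20 cells of each library, among 4094 genes with a mean of at least 50 CPM. The points share libraries and depth, and the values are descriptions. Nearest to Hmgb2 were Anp32b (0.98), Ly6k (0.97), U2af1 (0.96), Supt16 (0.96) and Tex101 (0.95). Anp32b is a histone chaperone and Supt16 a subunit of the FACT chaperone. Nearest to Hmgb4 were Aif1 (0.99), Actrt2 (0.99), Cypt12 (0.98), Chn2 (0.98) and Fam166a (0.98). Hmgb1 was nearest to the small GTPase gene Cdc42 (0.96), the germ cell RNA-binding gene Dazl (0.92), the splicing factor gene Srsf2 (0.92), Cnbp (0.91) and the translation factor gene Eif4a1 (0.90). Hmgb3 had no close neighbour, the first being Nmt2 (0.84), Emc10 (0.82), Samd4b (0.80), Cfl2 (0.78) and Ywhaz (0.78). Between members the correlation was 0.71 for Hmgb1 with Hmgb2, -0.69 for Hmgb2 with Hmgb4 and -0.25 for Hmgb1 with Hmgb4.

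Related chromatin genes were read from lists of other HMG genes, linker histones, the SET complex (known to bind HMGB2) and receptors of extracellular HMGB1. Of 35 other HMG genes, 15 passed the filter of a mean of 10 CPM in RS-like cells. In KO 1 of them was at least 2-fold higher and 1 lower, with a median log2 ratio of 0.31 against 0.19 for all genes, and in KI 2 were higher and 2 lower, with a median of 0.40 against 0.18. The counts lie near the background, given above for higher genes and at 3.2% in KO and 4.84% in KI for lower ones. They were Tox4 (log2 ratio 1.30 in KO and 1.19 in KI), Pbrm1 (0.96 and 1.21), Hmgn2 (-1.64 and -1.47) and Tox (-0.90 and -1.69), named here after their values were seen.
Of 11 linker histone genes 4 passed the filter. The medians were -0.07 and -0.31. The testis-specific H1 gene Hist1h1t, at 3.30 CPM for WT, 18.2 for KO and 14.9 for KI, passed only through its levels in the mutants, so its 2-fold difference is not read as a call (it is named here after its values were seen), and the other 3 were under 2-fold. Of 7 SET complex genes 3 passed, none past 2-fold, with medians of -0.18 and -0.20. None of the 8 receptor genes passed, and the highest receptor level in any germ cell class of WT was 2.68 CPM (Cd24a).
The highest gene of each list depended on the stage. Among the other HMG genes it was Hmgn1 in SG-like cells of WT (404 CPM), Sox6 in SP-like cells (167), Sox5 in RS-like cells (452) and Tfam, the mitochondrial DNA-packing protein, in ES-like cells (757). Among linker histones it was H1fx in SG-like cells (238 CPM) and the spermatid gene Hils1 from SP-like cells onward, at 235 CPM there and 1934.5 CPM in RS-like cells, with 1537 CPM in KO and 1531 in KI. In the SET complex Anp32b led in SG-like cells (505 CPM), and Set led from SP-like cells on, with 189 CPM in WT, 74.1 once RS-like and 36.7 once ES-like. In KO and KI it went from 211 and 216 CPM in SP-like cells to 104 and 128 in RS-like cells.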

How the data were processed

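The deposited matrices hold UMI counts per gene and barcode, not normalized by the authors. Their headers name Cell Ranger 4, the submitters' processing notes Cell Ranger 2.1.1 and mm10. All barcodes are listed, so cells were called here (7008 in WT, 4724 in KO and 2006 in KI) by total UMIs or by a profile unlike that of low-count barcodes, and kept with over 500 genes and under 10% mitochondrial UMIs. Libraries were aligned with SCTransform integration (R 4.3.3, Seurat 5.3.0, sctransform 0.4.2; 2000 genes, 100 dimensions) and clustered by Leiden at resolution 0.3 (scanpy 1.11.5, leidenalg 0.10.2). The HMGB genes and related lists were not among those 2000 genes. Scrublet marked hardly any cell in KO or KI, so doublets stayed in, except as an alternative. Counts were summed per class, cluster and library, scaled to CPM and compared as log2(CPM + 1). Genes with a mean of 10 CPM or more in a comparison were tested against the 2-fold rule. Beside the members, the text names Ddx25, the landmark packing genes, the 5 genes nearest to each member, and from each list the highest gene per class in WT and genes past 2-fold the same way in both mutants at 50 CPM or more, of which there were 0. Tox4, Pbrm1, Hmgn2, Tox and Hist1h1t fall outside this rule and are named after their values were seen. The calculation was tested on simulated data. Members and lists were chosen with earlier results of these data known. Normalization, filters, cell calling, doublets, class rules, pseudocount, free RNA and alignment were varied.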

Additional observations from a re-analysis of the deposited data

Results flagged for a closer look

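Hmgb4 was also found in barcodes and clusters that no comparison used. Among low-count barcodes, which hold free RNA rather than cells, it was at 1463 CPM for WT, 963 for KO and 1290.4 for KI, beside 1808, 1469.9 and 1333 CPM in RS-like cells. In cluster 8, which matched no cell type, it was at 240.3 CPM for WT, 184 for KO and 105 for KI. In cluster 9, led by mitochondrial genes and likewise unnamed, it was at 267 CPM for WT, 263 for KO and 122 for KI. No cause was tested for any of these.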

How the results depend on the processing

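No paired analysis was possible because the groups compared share fewer than 2 numbers, with 1 library each. Subtracting free RNA by its share of a class was not run, since Sertoli-like cells held more packing transcripts than low-count barcodes in WT (6.08% against 5.09%) and KI. In its place the profile of a low-count barcode was subtracted from each cell, an alternative chosen after seeing the data, as were leaving out shared barcodes, leaving out the low-depth RS-like cluster and the packing ranges. ES-like genotype ratios could not be given without alignment, with 1 KO and 5 KI cells, nor those of cluster 10, whose nearest cluster then held 3 KO and 1 KI cells. For the cases below, the cause was not tested. With TMM the RS-like log2 ratio of Hmgb1 came to 0.84 (KO) and 0.99 (KI). That of Hmgb2 in RS-like against SP-like cells of WT was -3.29 with TMM, -4.03 by marker score, -4.03 without alignment and -3.09 with a pseudocount of 10. That of Hmgb4 in the same step was 4.18 with free RNA subtracted, 4.18 with TMM, 4.28 after Scrublet, 4.66 by marker score, 4.03 with over 1000 genes, 3.47 without cell calling, 4.64 without alignment and 3.86 with a pseudocount of 10. Hmgb4 in RS-like cells of KO was at -0.15 without the low-depth cluster, -0.56 with TMM, 0.21 by marker score and -1.14 without alignment. In KI it was at -0.38, -0.65, 0.064 and -1.39, and at -0.51 without shared barcodes. The Hmgb4 share of WT RS-like cells was 96.9% without the low-depth cluster and 94.7% by marker score. In WT SP-like cells it was 22.2% with free RNA subtracted, 21.0% after Scrublet, 8.97% by marker score, 32.7% without cell calling and 11.7% without alignment. Without a filter, 7 of 34 other HMG genes passed 2-fold in KO (8.69% of all genes higher, 2.66% lower) and 8 in KI (7.36% and 4.22%). In WT, ES-like against RS-like cells, TMM turned Hmgb1 to 0.26 and Hmgb2 to 0.35, and without cell calling Hmgb4 in SP-like cells of KO was at 0.62. Of the further values, 454 moved by less than their counting interval, 110 by more, and of the called values 3, those just given, turned sign. Ratios under 2-fold changed sign too: Hmgb4 in SP-like against SG-like cells of WT ran from -2.15 to 1.80, and Hmgb3 in SG-like cells of KO kept its sign in 5 of 12. Hmgb3 in spermatids rests on 8 to 21 UMIs per library in RS-like cells, which limits any statement on it there.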
